A study of Rattus norvegicus with 66 samples.

Results

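Control pups of a developmental toxicity study in Long Evans rats were compared by the route through which their dams had received the vehicle. Feeding controls (CONF) came from dams kept on chow with the feeding vehicle alone, and injection controls (CONSC) from dams injected subcutaneously with the injection vehicle. The members were all control pups with sequenced RNA, 9 CONF and 10 CONSC pups, or 19 of the 64 pups and 21 of the 66 libraries of the series. CONF comprised 4 males and 5 females from 6 litters, and CONSC 5 males and 5 females from 6 litters. None of these pups was exposed to a test chemical. All were collected on postnatal day (PND) 6, and both sides of the dorsal hippocampus were dissected along with a small piece of laterally adjacent neocortex. The injections were given to the dams daily through most of gestation, and again after birth until the day of collection, so that the pups themselves were not injected. The sample labels name saline as the injection vehicle, whereas the study's methods name dimethyl sulfoxide, and vehicle, handling and injection cannot be told apart in this design. Dams and not pups were treated, and pups of 1 litter share a dam.

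The comparison bears on the stress axis. Repeated handling and injection of a dam can raise her glucocorticoids, which reach the young through placenta and milk and by her care of the litter. In the hippocampus these steroids bind the mineralocorticoid receptor, which has the higher affinity, and the glucocorticoid receptor, and the liganded receptors switch on target genes such as Fkbp5, Tsc22d3, Sgk1 and Per1. The early postnatal rat passes through a period in which its own adrenal response to mild stress is damped. Hippocampal glucocorticoid receptor is a known site at which early maternal care leaves a lasting mark.

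Libraries held 10777044 to 33399641 counts, and the pups with 2 libraries, male N2-2y and female N4-3x, were represented by the sum of both. The names of the libraries are written in 2 ways, here form A and form B. Form A was borne by 4 CONF male, 5 CONSC male, 2 CONF female and 3 CONSC female libraries, form B by 1 CONF male, 4 CONF female and 2 CONSC female libraries. Total counts, the share of mitochondrial counts, the number of genes detected and the share of the 100 most abundant genes did not separate the groups (exact permutation test within sex, 2-sided, p = 0.226 to 0.341). The labelled time of dissection ran from 10.7 to 12.4 h (median 11.7 h) in CONF and from 10.0 to 12.2 h (median 10.8 h) in CONSC, given as decimal hours. The 2 libraries of N4-3x carry different labelled times, 12.09 in form A and 11.55 in form B, in hours and minutes. They were taken as 1 pup by its number, and the mean of the times was used. On average CONSC pups were dissected 0.64 h earlier within sex, a difference that did not pass the exact permutation test (2-sided, p = 0.0843, 0.341 after Benjamini-Hochberg adjustment over the 5 measures). Female CONSC 9-1x stood apart from the other 18 pups. Its summed level of 10 striatum markers was 1366 CPM (counts per 1000000 counts of the pup) against 135.5 to 704 CPM in the others. Its hippocampus markers summed to 319.6 CPM against 457 to 667 CPM, and its choroid plexus markers to 4631 CPM against 1305 to 3996 CPM. Its neocortex markers were likewise below the others (317 against 458.5 to 912 CPM) and its hypothalamus markers above them (46.3 against 7.86 to 40.6 CPM). Hippocampus markers were counted in every pup, and so were the lists of striatum, thalamus and choroid plexus markers. In bulk tissue, fewer cells of a type and less RNA per cell cannot be told apart.

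**Figure D1:**
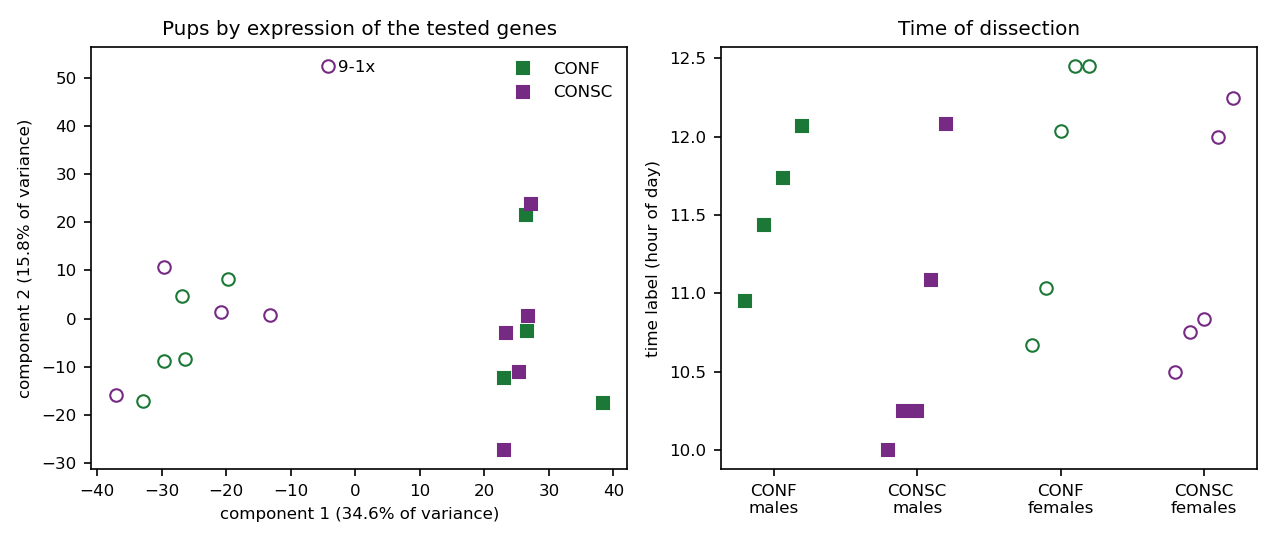
Left, the 19 control pups on the first 2 principal components of expression of the tested genes, which hold 34.6% and 15.8% of the variance. Squares are males and circles females, CONF in green and CONSC in purple. Male and female pups lie apart on component 1, CONF and CONSC pups mix, and 9-1x lies alone at 52.5 on component 2. Among females, pups with form B libraries alone lie from -37.1 to -26.8 on component 1. Females with form A libraries alone lie from -20.7 to -4.29. The part of the name form in component 1 was not tested. Right, the labelled time of dissection of each pup in decimal hours, from 10.0 h in a CONSC male to 12.4 h in CONF females.

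The question was which genes of the pups' hippocampus differed after vehicle injection of the dam. With both sexes in 1 fit and sex as a block, 2 of 16324 genes (0.0123%) passed an adjusted p of 0.05 in edgeR's quasi-likelihood F test, adjusted after Benjamini and Hochberg. Both, LOC100909655 and RragB, were lower in CONSC, and none was higher. At an unadjusted p under 0.05 there were 495 genes (3.03%), of which 245 (1.5%) were higher and 250 (1.53%) lower in CONSC. That number was 1785 with the time of dissection as a covariate. It was 1510 within a narrower window of dissection times, which left out the CONSC males 10-2y, 13-1y and 6-5y. With each pup left out in turn it was 312 to 1091, with 312 without CONF N4-3x, 784 without CONF N2-4x, 892 without CONSC 10-2y and 1091 without CONF N4-7y. In no gene did the CPM ranges of the 9 CONF and 10 CONSC pups fail to overlap (0 of 16324). The third smallest adjusted p by edgeR's test was 0.939. The 95% interval of the log2 difference lay within 1 log2 unit on either side of 0 in 15975 of the 16324 genes.

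In males alone the same 2 genes passed edgeR's test (0.0123%), with 179 at an unadjusted p under 0.05 (1.1%). DESeq2's Wald test called the same 2, with 123. The 179 became 151 to 410 with each pup left out (410 without CONF N4-7y). The window of dissection times left 11-4y and 8-4y as the only CONSC males. Within it 0 passed edgeR's test in males, with 521 at an unadjusted p under 0.05. With N2-2y by its form B library 0 passed in males as well. In females 0 genes passed edgeR's test, with 767 at an unadjusted p under 0.05 (4.7%), and DESeq2's Wald test called 0 with 751. The 767 became 344 without CONF N4-3x, 430 without CONF N8-1x, 443 without CONF N1-8x, 436 without CONSC 9-1x, 1602 without CONF N2-4x and 1903 without CONSC 8-2x. The difference between the sexes in the response to injection was tested as an interaction and called 0 genes, with 278 at an unadjusted p under 0.05 (1.7%), and DESeq2 called 0 with 270. Here the number was 450 without CONSC 11-4y, 550 without CONF N2-4x, 590 without CONF N2-2y and 797 without CONSC 8-2x.

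**Figure D2:**
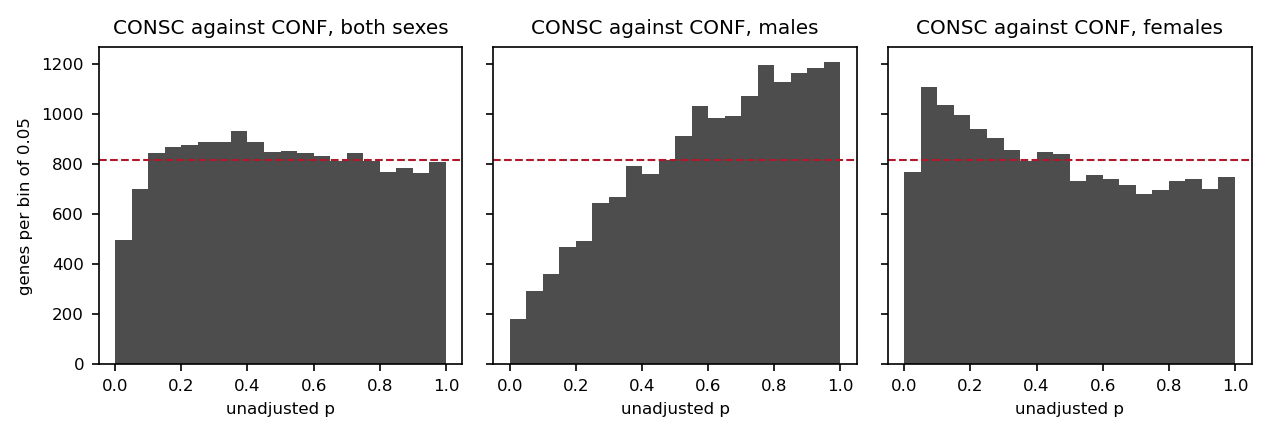
Number of genes in each bin of 0.05 of the unadjusted p of CONSC against CONF, for both sexes, males and females. The dashed line marks an even spread of the 16324 genes over the bins. The lowest bin holds 495, 179 and 767 genes and lies under the line in each panel.

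RragB encodes a Rag GTPase, which joins other Rag proteins at the lysosome to pass amino acid sufficiency to the growth regulator mTORC1. LOC100909655 is a separate entry in the annotation used for counting, but the current RefSeq table (assembly GRCr8) has no gene with its identifier and lists its transcript record under RragB. The 2 calls are thus 1 gene in that table. In the form A libraries of the 4 CONF males N2-2y, N3-4y, N4-7y and N5-2y, RragB had 46, 42, 33 and 31 counts and LOC100909655 46, 44, 33 and 36. In CONF females RragB had 0 counts in all 6 libraries and LOC100909655 1 to 5. In CONSC pups of both sexes RragB had 0 counts in each of the 10 libraries, which allows up to 3 counts per library by counting error alone, and LOC100909655 had 0 to 3. For LOC100909655 the log2 difference was -4.38 ± 0.47 (SE) with an adjusted p of 0.000116 by edgeR's test. The adjusted p of RragB was 0.0462 by the same test, and no fold is given because all CONSC libraries were at 0. The RragB call did not hold with the litter as a random block in limma (adjusted p = 0.587) or by edgeR's test with litters summed, the share of males as a covariate and the same genes kept (adjusted p = 0.576). Both alternatives change more than the treatment of littermates, and the correlation within litters estimated in limma was -0.13. Nor did it hold with both sexes in DESeq2's Wald test (adjusted p = 0.996), although that test called RragB in males alone (adjusted p = 3.67e-10). With the time of dissection as a covariate in edgeR's test the RragB call was lost as well (adjusted p = 0.182). Leaving out single pups in turn lost it in 10 of 19 cases, among them the CONF males N3-4y (adjusted p = 0.128 by edgeR's test), N4-7y (0.163) and N5-2y (0.237). LOC100909655 was called under each of these settings, but not within the narrower window of dissection times (adjusted p = 0.0693 by edgeR's test) or without the sex block.

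The high counts were thus those of 4 libraries of 1 name form, all from CONF males. The 5 CONSC male libraries were also of form A. Within form A libraries alone edgeR's test called both entries (adjusted p = 0.00144 for LOC100909655 and 0.00425 for RragB). The second library of male N2-2y, of form B, had 0 counts of RragB and 1 of LOC100909655, although it was the deeper of that pup's libraries (17746066 against 16472304 counts). Rraga, which encodes a closely related Rag GTPase, had 2026 counts in the form A and 2019 in the form B library of this pup. The 2 libraries of N2-2y differed in 8038 of the 16324 genes (49.2%) by a binomial test with adjustment that counts sampling error only. With N2-2y represented by its form B library, a choice made after these counts had been seen, both entries fell below the count filter and were not tested, and 0 of the other genes were called. With the 16324 genes kept as they were, the adjusted p in edgeR's test was then 0.0842 for LOC100909655 and 1 for RragB. With N2-2y left out altogether the adjusted p of RragB was 0.0334. Among the 45 pups of the other groups, RragB had 4 to 9 counts in 7, all of them Aro0.5, Aro5 or BPA0.5 males, and 0 in the rest. What sets the 4 libraries apart was not tested.

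**Figure D3:**
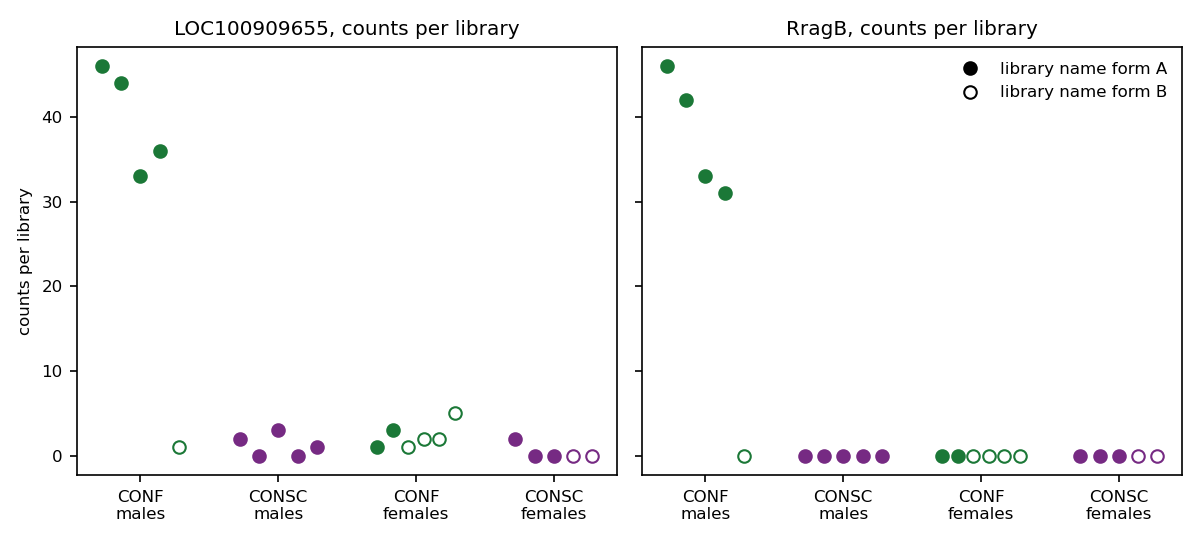
Counts of LOC100909655 and RragB in each of the 21 control libraries, by group and sex, filled for library name form A and open for form B. The 4 form A libraries of CONF males lie between 31 and 46 counts, and all other control libraries, including the form B library of male N2-2y, between 0 and 5.

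The glucocorticoid receptor system showed no member that passed the test. All 13 genes of the list were tested, 0 were called and 0 had an unadjusted p under 0.05, against 0.0123% and 3.03% of all genes, and the median log2 difference was -0.01 against 0.00 over all genes. Nr3c1, the glucocorticoid receptor, ranged from 31.5 to 46.8 CPM (median 42.5) in CONF and from 31.5 to 45.5 CPM (median 37.2) in CONSC. The ranges almost coincided, and the log2 difference was -0.11, with a 95% interval from -0.28 to 0.06. Nr3c2, the mineralocorticoid receptor, ranged from 19.7 to 32.0 CPM (median 26.4) in CONF and from 17.3 to 32.8 CPM (median 26.6) in CONSC. Its log2 difference was -0.03 (95% interval -0.26 to 0.20), and -0.17 with the time of dissection as a covariate. Hsd11b1, the enzyme that regenerates active glucocorticoid within cells, had 9.59 to 23.2 CPM (median 12.9) in CONF and 10.6 to 28.3 CPM (median 15.1) in CONSC. The highest CONSC value was that of male 8-4y, and the log2 difference of 0.19 (interval -0.16 to 0.54) was 0.09 without that pup. Hsd11b2, which inactivates glucocorticoid and shields the fetal brain, differed by 0.16 (interval -0.42 to 0.73), and by 0.01 without 8-4y. Of the receptor chaperones, Hsp90aa1, at only 0 to 68 counts per pup, differed by -0.23 (interval -0.73 to 0.28), and by -0.12 without 9-1x. Hsp90ab1 differed by 0.00 (interval -0.09 to 0.09), Stip1 by 0.01 (interval -0.07 to 0.10) and Fkbp4, the immunophilin that favours nuclear entry of the receptor, by 0.05 (interval -0.05 to 0.16).

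Peptides of the stress axis and their receptors also held no called gene. Of 19 genes, with Nr3c1 counted again among them, 16 had enough counts for the test. Of these 0 were called and 0 had an unadjusted p under 0.05, with a median log2 difference of 0.00. Crh, the releasing hormone that is also made by hippocampal interneurons, was low in both groups, with 1.40 to 3.28 CPM (median 2.07) in CONF and 0.51 to 3.13 CPM (median 2.08) in CONSC. Its log2 difference of -0.12 (interval -0.61 to 0.36) was 0.04 without 9-1x and -0.31 with the time of dissection as a covariate. Crhr1, its main receptor in the forebrain, ranged from 18.6 to 34.7 CPM (median 26.9) in CONF and from 21.3 to 33.0 CPM (median 26.8) in CONSC. The medians were nearly equal, with a log2 difference of 0.03 (interval -0.18 to 0.24). Crhbp, which sequesters the hormone, differed by 0.03 (interval -0.24 to 0.29). Oxt, the oxytocin precursor, was the member with the widest interval, from -2.60 to 0.24, at 0 to 60 counts per pup. Ucn, Avpr1b and Npy had too few counts to be tested, with at most 1 count of Npy in any pup. Whether the few counts of Npy, or those of Hsp90aa1, reflect low expression or the assignment of reads was not tested.

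Of the genes induced by glucocorticoids, 29 of 30 had an entry and all 29 were tested. None was called, and 3, all higher in CONSC, had an unadjusted p under 0.05 (3 of 29, against 1.5% of all genes in that direction). The members were chosen with earlier results of these data known, so this share is not an independent test of the list. The median log2 difference of the list was 0.00, with 13 members above 0 and 16 below. Fkbp5, an immunophilin that lowers the affinity of the glucocorticoid receptor and a sensitive target of it, had the smallest p of the stress genes. In CONF it ranged from 34.0 to 42.2 CPM (median 37.9) and in CONSC from 37.7 to 51.6 CPM (median 43.2). Of the 10 CONSC pups, 6 lay above all CONF pups, and 4 of the 9 CONF pups lay below all CONSC pups. The log2 difference was 0.17 ± 0.06 (SE, interval 0.05 to 0.29), with p = 0.00648 before and 0.987 after adjustment in edgeR's test, so that it did not pass. It was 0.13 in males and 0.21 in females, and the interaction p was 0.486 before adjustment. Without pup 9-1x, whose level of 51.6 CPM was the highest, the log2 difference was 0.13 with an unadjusted p of 0.0153. Within libraries of name form A it was 0.22, and with the time of dissection as a covariate 0.21.

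Txnip, which binds thioredoxin and limits glucose uptake, ranged from 48.8 to 97.3 CPM (median 67.1) in CONF and from 59.5 to 105.4 CPM (median 78.1) in CONSC. The groups overlapped, with 2 of the 10 CONSC pups above all CONF pups and 4 of the 9 CONF pups below all CONSC pups, and the log2 difference of 0.27 ± 0.12 (SE) had an unadjusted p of 0.0297 and an adjusted p of 0.987 in edgeR's test. With the time of dissection as a covariate it was 0.20, with an unadjusted p of 0.107. Mt1a, a metal-binding metallothionein, ranged from 3.45 to 7.90 CPM (median 6.22) in CONF and from 5.15 to 11.7 CPM (median 6.83) in CONSC. The highest value again was that of 9-1x, and the log2 difference of 0.28 ± 0.13 (SE, unadjusted p = 0.0441, adjusted p = 0.987 in edgeR's test) was 0.19 without that pup, with an unadjusted p of 0.126. With N2-2y by its form B library it was 0.22, with an unadjusted p of 0.119.

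Other well-known targets of the receptor did not pass the test either. Tsc22d3, the leucine zipper protein known as GILZ, had 44.7 to 64.2 CPM (median 57.6) in CONF and 48.9 to 65.4 CPM (median 57.4) in CONSC. Its interval was narrow, from -0.09 to 0.12 around a log2 difference of 0.01. Sgk1, a kinase that acts on ion channels, had 57.1 to 81.9 CPM (median 71.1) in CONF and 42.6 to 82.1 CPM (median 70.5) in CONSC, with a log2 difference of -0.08 (interval -0.28 to 0.12) that was -0.02 without 9-1x and -0.18 with the time of dissection as a covariate. Per1, a clock gene that also carries a glucocorticoid response, had 29.7 to 54.0 CPM (median 39.5) in CONF and 31.8 to 46.4 CPM (median 39.9) in CONSC. Its log2 difference was -0.07 (interval -0.22 to 0.08). Zbtb16, a zinc finger repressor, spread more, from 4.87 to 15.4 CPM (median 6.46) in CONF and from 2.25 to 14.1 CPM (median 7.27) in CONSC. Its difference of -0.12 (interval -0.65 to 0.40) was 0.03 without 9-1x and -0.42 with the time covariate. Klf9, a glucocorticoid and thyroid hormone target, had a log2 difference of -0.34 (interval -0.73 to 0.05). With the time covariate it was -0.52 (unadjusted p = 0.0140 in edgeR's test) and within the window of dissection times -0.54 (unadjusted p = 0.0115).

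**Figure D4:**
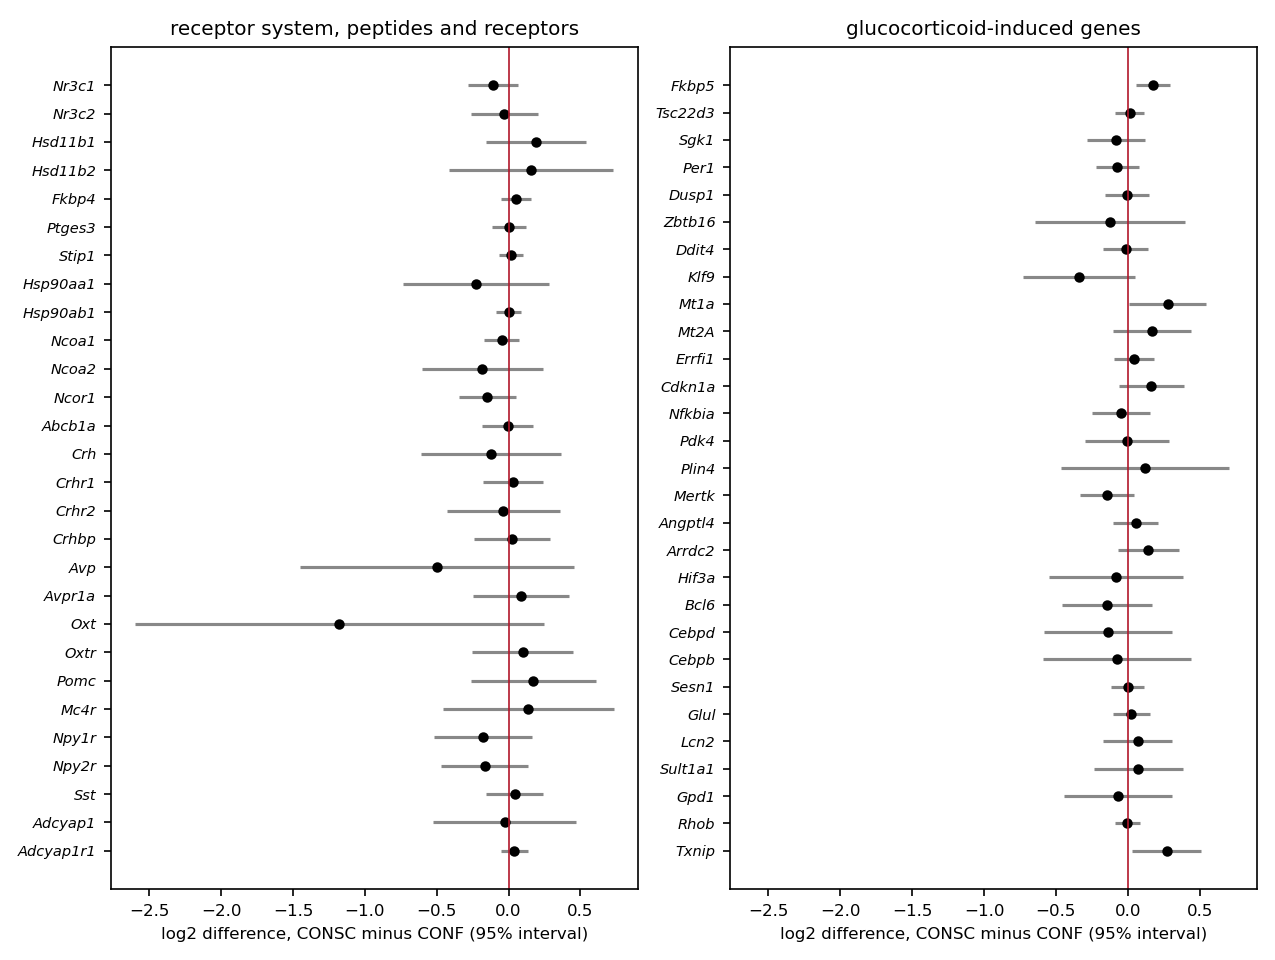
Log2 difference of CONSC minus CONF with its 95% interval for the tested genes of the receptor system and the stress peptides with their receptors (left) and the 29 tested genes induced by glucocorticoids (right). The intervals of Fkbp5, Mt1a and Txnip alone lie to the right of 0, and that of Oxt is the widest.

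Immediate early genes, which report recent neuronal activity, gave 0 calls among 27 tested and 0 at an unadjusted p under 0.05, with a median log2 difference of 0.04. Fos, a transcription factor of the AP-1 complex, ranged from 2.11 to 5.02 CPM (median 3.27) in CONF and from 1.85 to 8.12 CPM (median 2.99) in CONSC. The CONSC maximum was that of female 11-3x alone. Egr1 ranged from 7.96 to 30.9 CPM (median 14.3) in CONF and from 8.01 to 30.9 CPM (median 15.3) in CONSC. Arc, which shapes synaptic receptor content, ranged from 8.07 to 13.1 CPM (median 10.4) in CONF and from 5.26 to 18.4 CPM (median 10.0) in CONSC. Npas4, an activity-dependent factor of inhibitory synapse formation, ranged from 2.48 to 5.03 CPM (median 3.18) in CONF and from 2.00 to 9.34 CPM (median 3.36) in CONSC. For Arc and Npas4 the highest level was that of 9-1x. The log2 difference of Npas4 was 0.17 with that pup and -0.11 without it, and that of Arc -0.03 and -0.16. With the time covariate Arc was at 0.14. Over the 84 different genes of these 4 lists, 82 had a 95% interval within 1 log2 unit on either side of 0, and 55 within 0.5.

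**Figure D5:**
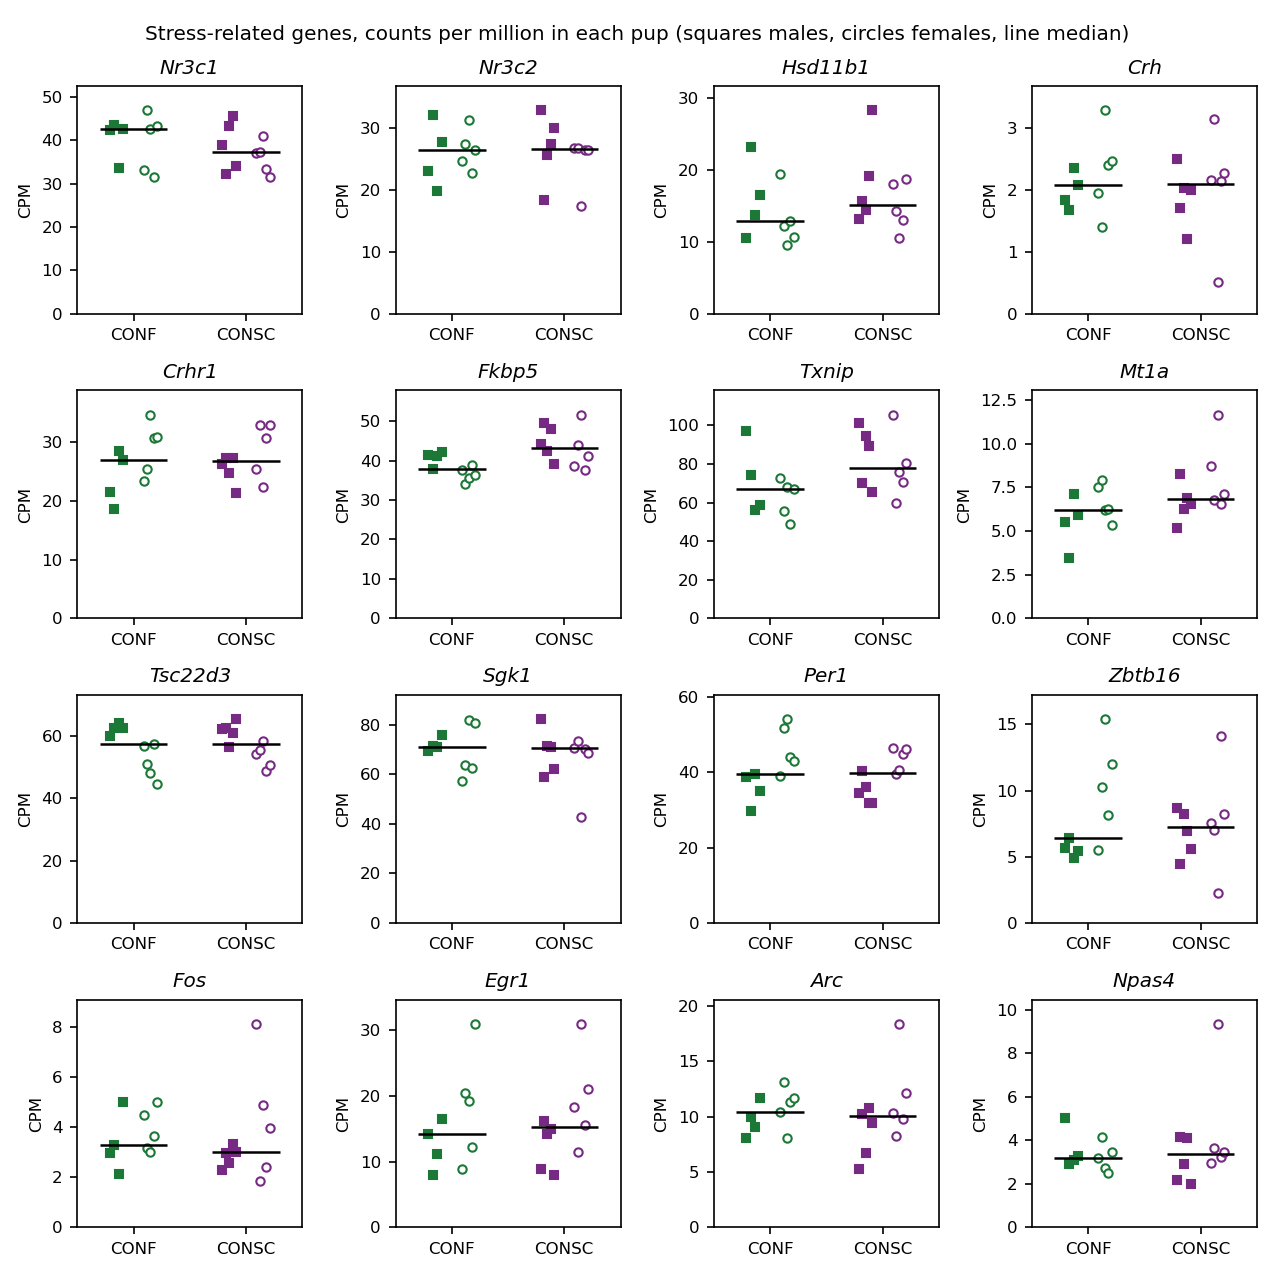
CPM in each pup for 16 stress-related genes, with squares for males, circles for females and a line at the group median. CONF and CONSC overlap in every panel, and the medians of Fkbp5 are 37.9 CPM in CONF and 43.2 CPM in CONSC.

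Lists of other cellular stress programmes held no called gene. Heat shock genes (17 tested), genes of the unfolded protein and integrated stress response (17) and oxidative stress genes (18) had 0 at an unadjusted p under 0.05, and their median log2 differences were 0.02, 0.03 and -0.01. Of 14 inflammation genes 2 had an unadjusted p under 0.05, both lower in CONSC, against 1.53% of all genes in that direction. C3, a central complement protein, differed by -1.51 ± 0.62 (SE), but CONF female N4-3x had 26.2 CPM against at most 1.96 CPM in the other CONF pups, and without N4-3x the difference was -0.14. Ptgs2, the inducible cyclooxygenase, differed by -0.75 ± 0.34 (SE), with an unadjusted p of 0.116 without CONF N2-2y. Il1b, Il6 and Tnf were too low to be tested.

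Lists of growth, metabolism and maturation also held no called gene. Growth, feeding and insulin genes held 1 of 20 with an unadjusted p under 0.05, lower in CONSC, against 1.53% of all genes in that direction. This was Irs1, an adaptor of the insulin receptor, at -0.40 ± 0.16 (SE), which missed that level without CONF N2-2y (unadjusted p = 0.0704 in edgeR's test). Thyroid hormone genes (14), circadian clock genes (16), cholesterol genes (18) and hypoxia and glycolysis genes (14) held 0, with medians of -0.02, -0.07, -0.02 and -0.01. Of the 16 clock genes 14 had a log2 difference below 0, and the median of the list was -0.05 within the window of dissection times. Whether the earlier dissection of CONSC pups by 0.64 h has a part in this was not tested. Among 27 transmitter receptors and chloride transporters, 24 had a log2 difference below 0, and the median was -0.05. Among 17 cell cycle and neurogenesis genes Pcna, the replication clamp, differed by 0.17 ± 0.07 (SE), and by 0.14 without 9-1x (unadjusted p = 0.0715 in edgeR's test). Ribosomal protein genes lay above 0 in 19 of 19, with a median log2 difference of 0.13 against 0.00 over all genes. Of these, Rps14, Rpl3 and Rpl10 had an unadjusted p under 0.05 (3 of 19, against 1.5% of all genes in that direction), and all 3 missed it without pup 9-1x. Ribosomal protein genes have many near-identical copies in the genome, and reads shared with them are uncertain. None of these genes had an adjusted p under 0.05 by edgeR's test.

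The study also ran real time RT PCR in both control groups on Nrg1, Erbb4, Sox6, Sox11, Pou2f1 and Esr1. It reported that this comparison bore out the absence of a significant difference between the control groups in its sequencing data. In the libraries these 6 genes had log2 differences from -0.39 to -0.03, and 0 passed. Erbb4, the neuregulin receptor that guides interneurons, had the largest of these in size, -0.39 ± 0.24 (SE). Sox6 differed by -0.15 (interval -0.50 to 0.20), and by -0.24 to -0.06 with each pup left out in turn. Its log2 difference was 0.10 in males and -0.36 in females (interaction p = 0.178 before adjustment in edgeR's test). Esr1, the oestrogen receptor alpha, ranged from 4.16 to 6.75 CPM (median 5.14) in CONF and from 3.20 to 9.70 CPM (median 5.12) in CONSC, with a log2 difference of -0.03. With the time of dissection as a covariate the log2 difference was -0.65 for Erbb4 (unadjusted p = 0.0120), -0.27 for Nrg1 (unadjusted p = 0.0443), -0.31 for Sox6 and -0.24 for Esr1. Within the window of dissection times it was -0.32 for Nrg1 (unadjusted p = 0.0147), -0.38 for Sox6 (unadjusted p = 0.0287) and -0.25 for Esr1. The adjusted p of these 4 genes by edgeR's test lay above 0.05 in both settings.

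Below the 2 called entries, the genes with the smallest p did not pass either (adjusted p = 0.939 to 0.987 by edgeR's test). Leprel4, an endoplasmic reticulum protein that takes part in collagen modification, ranged from 11.4 to 14.6 CPM (median 12.3) in CONF and from 13.5 to 18.8 CPM (median 15.5) in CONSC. Of the 10 CONSC pups, 8 lay above all CONF pups, with a log2 difference of 0.31 ± 0.07 (SE). Prelp, an extracellular matrix proteoglycan, ranged from 11.1 to 19.0 CPM (median 13.4) in CONF and from 12.9 to 32.3 CPM (median 20.9) in CONSC. S100a6, a calcium-binding protein, ranged from 0.44 to 0.71 CPM (median 0.52) in CONF and from 0.61 to 1.21 CPM (median 0.78) in CONSC. These values rest on only 7 to 29 counts per pup. Of the 10 CONSC pups, 6 lay above all CONF pups for Prelp and 7 for S100a6, with log2 differences of 0.59 ± 0.16 and 0.60 ± 0.16 (SE). Lower in CONSC were Tfdp2, a partner of the E2F cell cycle factors, at -0.26 ± 0.06 (SE), Elovl6, a fatty acid elongase, at -0.61 ± 0.15 (SE), and Pcdhb6, a protocadherin, at -0.66 ± 0.18 (SE). The others of the 15, Adam4l1, Ankmy1 and 5 uncharacterised entries, had log2 differences from -1.43 to -0.59, all lower in CONSC.

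Of the 12 lists of markers of neighbouring tissue and other cell types, 0 held a called gene, and 3 of the 104 members tested had an unadjusted p under 0.05, 1 higher and 2 lower in CONSC, against 3.03% of all genes. These were Zbtb20, a hippocampal transcription factor (-0.62 ± 0.26, SE), Pmch, the precursor of a hypothalamic peptide (-2.07 ± 0.90, SE), and Slc6a13, a transporter of the meninges (0.45 ± 0.17, SE). Pmch was at 20.7 CPM in CONF female N2-4x and at most 2.27 CPM in the other CONF pups, and without N2-4x its difference was 0.28. Zbtb20 had an unadjusted p of 0.0896 without CONF N2-2y, and Slc6a13 one of 0.0596 with the time of dissection as a covariate. Meninges markers summed to 256 to 432 CPM in CONF and 241 to 381 CPM in CONSC, and 1 of the 9 was at 0 in every pup. Their part in the values of Prelp and Slc6a13 was not tested.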

How the data were processed

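RNA of dorsal hippocampus at PND 6 was sequenced from single pups with a stranded mRNA protocol. The submitters' processing notes name STAR, featureCounts and kallisto with the rat genome build Rnor_6.0, without versions. The authors deposited raw counts per gene for each library. How strand and reads with several matches were treated is not given in the sources used here. The labels name a NovaSeq sequencer and the study's methods a HiSeq. Sex was checked on Kdm5d, with at least 323 counts in every control male library and 0 in females.

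From the deposited counts, libraries of a pup were summed. Genes were kept by filterByExpr and scaled by TMM. CONSC was compared with CONF in edgeR 4.0.16 (R 4.3.3) by the quasi-likelihood F test with sex as a block and Benjamini-Hochberg adjustment over all genes tested, with 0.05 as the threshold. Contrasts within each sex and their difference came from 1 fit with a mean for each group and sex. The SE is the log2 difference divided by the square root of F. CPM are per 1000000 counts. Alternatives used limma 3.58.1 and DESeq2 1.42.0. Scripts were tested on simulated data. Exact permutation tests enumerated all 31752 splits of the pups within sex in Python 3.11.15 with numpy 2.4.6 and pandas 2.3.3, and figures were drawn with matplotlib 3.10.9.

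Genes named are those called, those with the smallest p up to 15, members of the stress lists, the 6 RT PCR genes and, of every other list, members with an unadjusted p under 0.05, of which some are not reported here. Members and lists were chosen with earlier results of these data known. The shares of list members at an unadjusted p under 0.05 are therefore not independent tests of the lists. Pup replicates are separate animals, but littermates share a dam. Pups of 1 litter were treated as independent, and the alternatives sum them or block on the litter. The narrower window of dissection times used as an alternative runs from 10 h 30 min to 13 h 20 min.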

Additional observations from a re-analysis of the deposited data

Results flagged for a closer look

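Values far from the rest of their group were looked for with Dixon's criterion in 103 groups of values, of which chance alone flags about 1 in 20, and 9 stood apart. C3 was 26.2 CPM in CONF female N4-3x, against at most 1.96 CPM in the others. Pmch was 20.7 CPM in CONF female N2-4x, against at most 2.27 CPM. In CONSC female 9-1x, Npas4 was 9.34 CPM and Arc 18.4 CPM, with the next pups at 4.13 and 12.1 CPM. Fos was 8.12 CPM in CONSC female 11-3x, with the next at 4.88 CPM. Hsd11b1 was 28.3 CPM and Esr1 9.7 CPM in CONSC males 8-4y and 10-2y, with the next at 19.2 and 6.38 CPM. LOC103693414 was 0 CPM in CONF male N4-7y, with the next at 0.436 CPM, and 0.714 CPM in CONSC female 8-2x, with the next at 0.315 CPM.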

How the results depend on the processing

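The count of 2 called genes, RragB and LOC100909655, was 0 with litters summed, at least 10 counts required in every pup, 21 libraries counted separately with or without the name form as a covariate, or N2-2y by its form B library, where both entries were removed by the count filter and not tested. With the genes as reported the count was then 1 with litters summed, 1 and 2 without and with the name form, and 0 with the form B library. Both were tested and not called without the sex block (adjusted p = 1) and within the narrower window of dissection times (adjusted p = 0.0693 for LOC100909655 and 0.556 for RragB by edgeR's test), for which the cause was not tested. The count was 1 with the litter as a random block in limma, in DESeq2, with all 64 pups in 1 fit, with the time of dissection as a covariate, and with LOC100909655 added to RragB. RragB and LOC100909655 were the only genes called under any of these settings. With each pup left out in turn the count was 1 to 2. RragB was lost without any of the CONF pups N4-3x, N3-4y, N4-7y and N5-2y or the CONSC pups 13-8x, 10-2y, 11-4y, 13-1y, 6-5y and 8-4y. In males the count was 0 within the time window, where 11-4y and 8-4y were the only CONSC males. The count in males was also 0 with the form B library of N2-2y (with the genes as reported too), and 1 to 2 with each pup left out. In females and in the interaction it was 0 throughout, also with each pup left out, with 344 to 1903 and 190 to 797 genes at an unadjusted p under 0.05. The difference in time of dissection was -0.81 to -0.54 h with each pup left out. It passed the exact permutation test without CONF N1-8x (p = 0.0406), CONSC 9-1x (p = 0.0452) or CONSC 11-4y (p = 0.0253), and was -0.37 h in form A libraries alone. Fkbp5 kept an adjusted p above 0.05 in every setting and with each pup left out. Settings on the form B library of N2-2y, the genes as reported, the added entries, the time of dissection and counts within a sex were chosen after seeing the data. No paired analysis was possible because the groups share no pup numbers. Low counts limit Oxt, Hsp90aa1, RragB and LOC100909655. Other named genes were also low, among them S100a6 (7 to 29 counts per pup), Elovl6 (5 to 76), Ptgs2 (1 to 63) and LOC103693414 (0 to 36).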
